A study of Rattus norvegicus with 24 samples.

Results

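The genes described here encode the subunits of the respiratory complexes II, III, IV and V in the nucleus, together with Cycs, the gene of cytochrome c. They are 39 named genes, 4 of complex II, 10 of complex III with cytochrome c, 10 of complex IV and 15 of complex V. They were chosen by symbol from the annotation of the array and not by a cutoff on a measured value, but with earlier results of these data known. Of these, 35 had a transcript cluster of their own, out of 22093 genes with one. Cox7c, Atp5f1c and Atp5me had only clusters shared with other symbols, and Cox6b1 had none under its symbol, so no value is given for these 4. Where a gene had several clusters, the one with the highest mean was taken, and Atp5f1d was found under its older name, Atp5d. The brain stem of 24 male Wistar rats (RccHan:WIST), aged 7-8 weeks at the start, was measured on Affymetrix RTA 1.0 arrays with the RNA of 1 rat each. Rats received rotenone at 400 ppm in the diet, or untreated food, and were killed on day 1, day 3 or day 14, which gives 6 groups of 4 rats. No rat carried a genetic change, and the treated rats were compared with the controls of the same day. All levels are log2 of the deposited intensity, so a positive difference means a higher level in the group named first, and differences are rotenone minus control unless another direction is stated.

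The respiratory chain of the inner mitochondrial membrane hands electrons from NADH and succinate to oxygen and pumps protons on the way, and ATP synthase, complex V, uses the returning protons to make ATP. Complex II takes electrons from succinate and is also an enzyme of the citrate cycle, complex III passes them from ubiquinol to cytochrome c, and complex IV, cytochrome c oxidase, passes them to oxygen. Rotenone, a pesticide, blocks complex I, which lies upstream of complexes III and IV and is bypassed by complex II. The brain depends on this chain for nearly all of its ATP, and the genes of its nuclear subunits are known to be expressed together.

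Many promoters of these genes are known for sites of the factors NRF1, YY1 and the ETS factor GABP. RefSeq promoter windows of the GRCr8 assembly, 250 bases before to 50 after the start of the gene, were found for 33 of the 39 genes. Letters of an NRF1 site (GCGCA, then any base, then GCGC) were in 7 of the 33 windows (21.2%), against 4.25% of 33469 windows of all genes. An ETS site (CCGGAAGT) was in 5 (15.2%), against 3.81%, and a YY1 site (AANATGGC) in 13 (39.4%), against 6.96%. Both strands were searched, and at least 1 of the 3 was in 19 windows (57.6%), against 13.7% of all. The letters of the YY1 site hold ATGG, which also begins many coding sequences, and a match is only a run of letters. Windows of Uqcrfs1, Cycs, Cox4i1, Atp5f1e, Atp5mc1 and Atp5pb, whose levels are described in full below, had no match and are not shown. One window of each complex with at least 1 match is shown, from genes whose levels are described in full or whose day 14 difference is given below, with the matches in capitals. Those of Sdha (chr1:30764303-30764602, plus strand) are 3 of NRF1 and 1 of YY1. The window of Uqcr10 (chr14:83791865-83792164, minus strand) has 1 of YY1, that of Cox8a (chr1:213833574-213833873, minus strand) has 2 of ETS and 1 of YY1, and that of Atp5mc2 (chr7:135678169-135678468, minus strand) has 1 of NRF1, which reads as a match on both strands.
Sdha: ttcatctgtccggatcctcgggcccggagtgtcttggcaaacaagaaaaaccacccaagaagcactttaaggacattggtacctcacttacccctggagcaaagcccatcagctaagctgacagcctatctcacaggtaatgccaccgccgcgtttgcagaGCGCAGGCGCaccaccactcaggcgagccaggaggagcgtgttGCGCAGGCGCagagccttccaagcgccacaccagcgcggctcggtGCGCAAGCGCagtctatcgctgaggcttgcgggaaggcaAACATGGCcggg
Uqcr10: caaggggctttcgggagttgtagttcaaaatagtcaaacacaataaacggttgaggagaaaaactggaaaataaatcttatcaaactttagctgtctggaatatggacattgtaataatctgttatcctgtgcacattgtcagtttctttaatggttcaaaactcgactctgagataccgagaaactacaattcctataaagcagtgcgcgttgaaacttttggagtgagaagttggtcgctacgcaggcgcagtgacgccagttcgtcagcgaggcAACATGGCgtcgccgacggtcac
Cox8a: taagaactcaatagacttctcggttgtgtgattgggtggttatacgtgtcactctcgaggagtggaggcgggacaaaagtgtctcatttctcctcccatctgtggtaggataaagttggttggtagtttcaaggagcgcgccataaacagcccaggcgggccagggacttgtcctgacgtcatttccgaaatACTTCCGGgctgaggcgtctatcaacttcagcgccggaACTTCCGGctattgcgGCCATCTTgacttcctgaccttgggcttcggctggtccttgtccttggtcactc
Atp5mc2: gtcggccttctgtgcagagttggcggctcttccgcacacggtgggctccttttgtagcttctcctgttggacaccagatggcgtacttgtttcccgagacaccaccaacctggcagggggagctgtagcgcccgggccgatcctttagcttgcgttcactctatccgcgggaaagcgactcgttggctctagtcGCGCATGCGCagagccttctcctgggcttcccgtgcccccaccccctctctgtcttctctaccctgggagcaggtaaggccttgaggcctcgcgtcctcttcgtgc

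None of the 35 genes differed between rotenone and control at an adjusted p under 0.05 from limma on day 1, day 3 or day 14, or in the average of the 3 days. P-values were adjusted over all 68842 clusters, of which 0 (0%) passed on day 1, 0 (0%) on day 3, 26 (0.0378%) on day 14 and 2 (0.00291%) in the average. The smallest adjusted p among the 35 was 0.58 on day 1, 1.0 on day 3, 0.34 on day 14 and 0.33 in the average. A least squares fit without moderation also called 0 of them in each. A filter recomputed here also passed none of the 35. It asked for P under 0.001 in an analysis of variance, P under 0.05 in a rank test and a ratio of at least 1.8. Of all clusters 17 qualified, and the largest ratio among the 35 was 1.34, for Uqcr10. These cutoffs follow the paper, but the filter only approximates its selection and did not return the number of deregulated genes reported there. It therefore cannot show whether any of these genes met the criteria as the authors applied them. An interaction of treatment and day was called for 0 of 35 and 0 of all clusters (0%), and at an unadjusted p under 0.05 for 0 of 35, against 5.1% of all clusters. The 95% confidence intervals lay within -0.40 and 0.37 for all 35 genes on day 3 and within -0.29 and 0.29 in the average, so that the median interval extended 0.19 and 0.11 to each side. On day 1 and on day 14, the interval reached past 0.5 in either direction for 3 genes each. Medians of the arrays were at intensities of 70.7 to 82.6, and their number limits the precision. As this is bulk tissue, fewer cells of a type and less RNA per cell cannot be told apart.

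Most differences did not have the same sign on the 3 days. On day 1, 30 of 35 genes were at a higher mean in the treated rats, with a median log2 difference of 0.04 against 0.03 over all clusters, and 2 (Cox4i1 and Cox7b) reached an unadjusted p under 0.05, against 4.45% of clusters in that direction and 4.07% of the genes with a symbol above the median cluster. That count of 2 was 0 without control rat 1, control rat 3 or treated rat 4 of day 1, 1 without treated rat 3, 4 without control rat 4 or treated rat 2 and 5 without control rat 2, and the median was 0.015 to 0.088 over all fits that left out 1 rat. On day 3, 11 were higher and 24 lower, with a median of -0.02, and none reached an unadjusted p under 0.05 in either direction, against 1.88% of clusters higher and 1.29% lower. On day 14, 30 of 35 were lower, with a median of -0.07 against 0.05 over all clusters and -0.0051 over the genes with a symbol. Of the 35, 6 reached an unadjusted p under 0.05, namely Uqcr10, Uqcr11, Cox5b, Cox8a, Atp5f1e and Atp5mc2. In that direction 3.84% of all clusters did so, and 10.9% of the 14463 genes of the brighter kind just named. The split on day 14 depended on the scaling of the arrays. After quantile normalization 13 were higher and 22 lower on day 14, with a median of -0.03 and 2 lower at an unadjusted p under 0.05, against 4.33% of clusters. With the arrays centred on their median, all 35 were lower, with a median of -0.16 and 8 at an unadjusted p under 0.05, against 7.96% of clusters. Adjusted p-values left 0 of 35 called under either scaling.

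**Figure D1:**
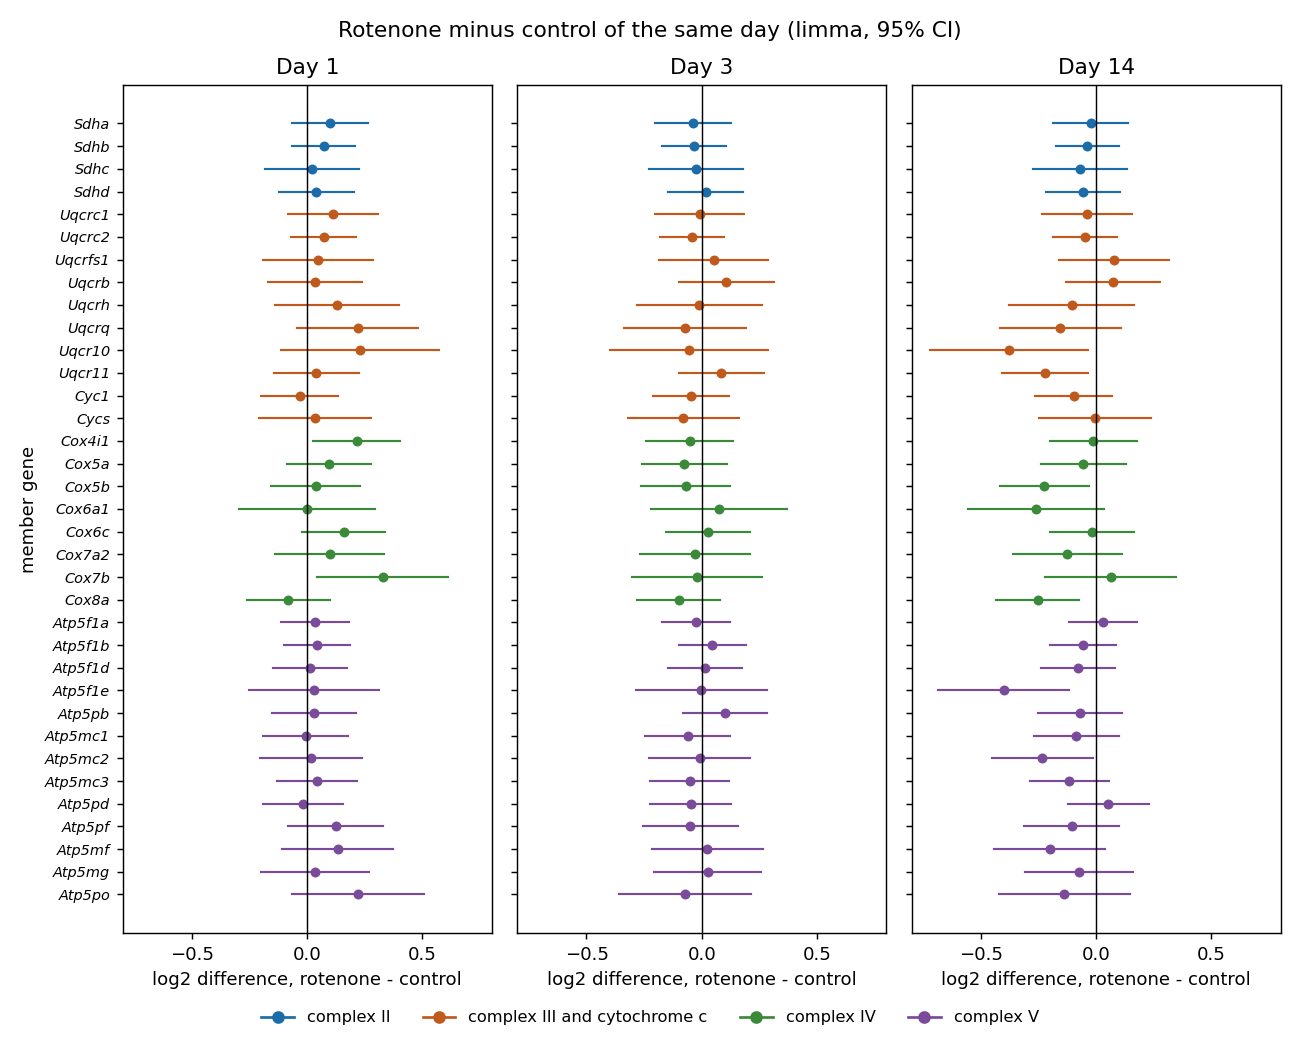
Log2 difference between rotenone and control of each of the 35 genes (rows, coloured by complex) on day 1, day 3 and day 14, with the limma 95% confidence interval and 4 rats in each group. Points lie mostly right of 0 on day 1 (30 of 35) and left of 0 on day 14 (30 of 35), and 0 of 35 passed the adjusted test on any day.

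Before the complexes are taken in turn, the controls of day 1 need a description, since they enter every difference of that day. In control rats 1 and 3 of day 1 the mean log2 level of 15 cerebellum marker genes was 12.19 and 11.65, against 8.29 to 9.28 in the remaining 22. Of 16 markers listed 15 were measured, and all 15 were above the median cluster. By group it ranged from 8.81 to 12.19 in the controls of day 1, from 8.34 to 8.81 with rotenone on day 1, from 8.29 to 8.48 and 8.47 to 8.52 on day 3, and from 8.46 to 9.28 and 8.37 to 8.68 on day 14. Markers of brain stem neurons, 9 of 10 measured and all above the median cluster, had a mean of 8.73 and 8.69 in the same 2 rats and of 9.00 to 9.87 in the others. The median deviation of the 35 genes from their mean over all arrays was -0.18 and -0.28 in these 2 rats, and -0.05 and -0.0011 in control rats 2 and 4 of that day. Without rats 1 and 3, only these 2 control rats of day 1 were left, those with the higher median deviations, so lower differences were bound to follow. For rotenone on day 1, 8 of 35 genes were then higher and 27 lower, with a median of -0.04. The smallest unadjusted p from limma among the 35 was 0.13, for Cyc1. With the cerebellum and choroid plexus markers, averaged, as covariates 11 were higher and 24 lower. The differences of day 1 of the complexes and of the genes described in full are therefore given with and without these 2 rats.

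**Figure D2:**
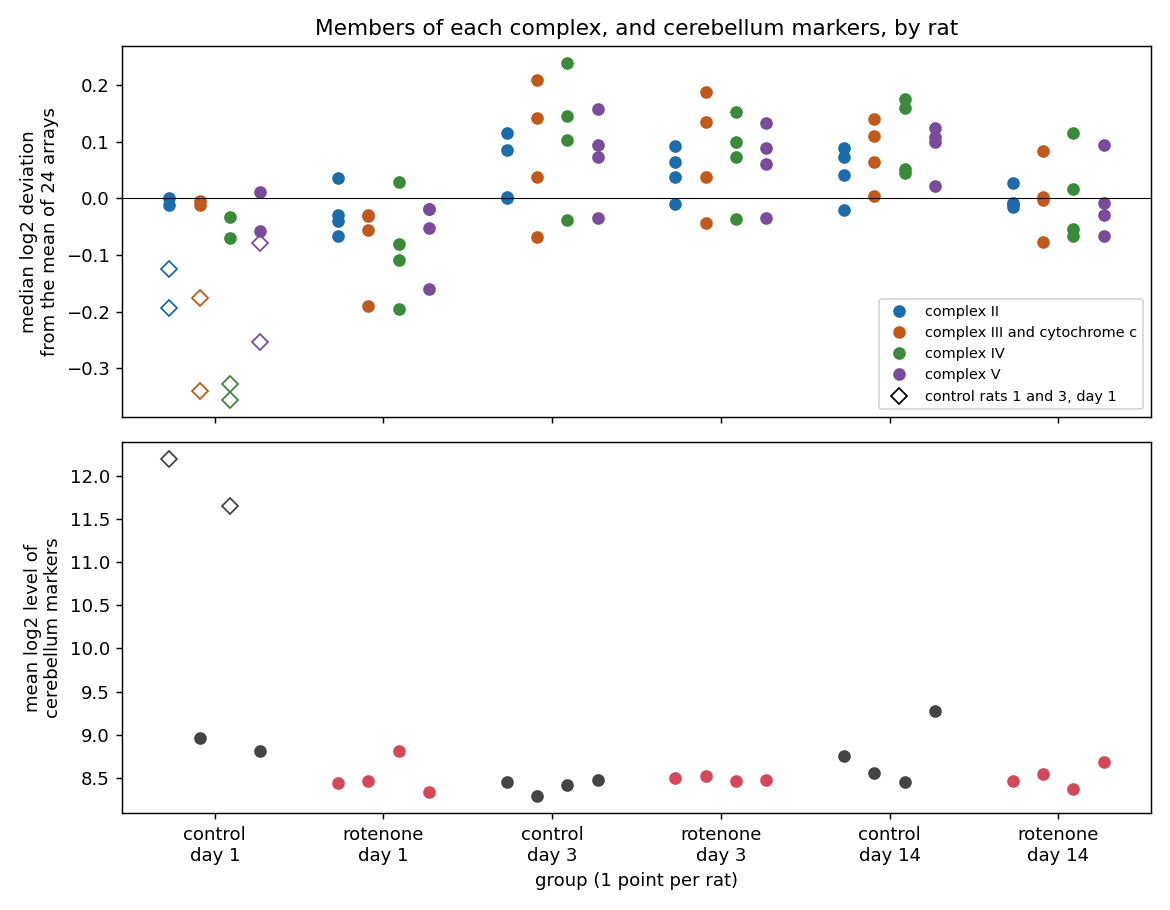
Median log2 deviation of the genes of each complex from their mean over the 24 arrays (upper panel) and mean log2 level of the cerebellum markers (lower panel), 1 point per rat and complex or per rat, by group. Open diamonds mark control rats 1 and 3 of day 1, at 12.19 and 11.65 in the lower panel, and the median of complex IV was lower in them than in any other rat, at -0.33 and -0.36.

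The median difference of the 4 genes of complex II was 0.06 on day 1 (-0.02 with 1 of 4 higher without control rats 1 and 3), -0.03 on day 3 and -0.05 on day 14, and no gene of the complex reached an unadjusted p under 0.05 on any of these days. Sdha encodes the flavoprotein that oxidizes succinate. Sdha read 12.83, 13.07, 12.86 and 13.13 in the controls and 13.10, 13.02, 13.11 and 13.05 in the treated rats of day 1. Sdha on day 3 was 13.18, 13.08, 13.19 and 13.02 in the controls and 13.20, 13.09, 13.07 and 12.97 after rotenone. Sdha on day 14 was 13.17, 13.14, 13.15 and 13.21 in the controls and 13.11, 13.06, 13.19 and 13.21 after rotenone. The groups overlapped on each day, and the lowest values were those of control rats 1 and 3 of day 1. Sdha differed by 0.10 (SE 0.08) on day 1, by -0.04 (SE 0.08) on day 3 and by -0.02 (SE 0.08) on day 14, with adjusted p-values from limma of 0.81, 1.0 and 0.94. Without the 2 control rats the difference of day 1 was -0.03. Sdhc encodes one of the membrane anchors. Sdhc read 12.47, 12.58, 12.40 and 12.54 in the controls and 12.53, 12.48, 12.59 and 12.46 in the treated rats of day 1. Sdhc on day 3 was 12.55, 12.72, 12.70 and 12.54 in the controls and 12.59, 12.57, 12.62 and 12.64 after rotenone. Sdhc on day 14 was 12.76, 12.28, 12.45 and 12.64 in the controls and 12.42, 12.68, 12.25 and 12.50 after rotenone. The treated rats of day 14 spanned nearly the range of the controls, shifted a little down. Its differences were 0.02, -0.02 and -0.07 (SE 0.10 each) on the 3 days, and -0.04 on day 1 without the 2 control rats. Sdhb, the iron-sulfur subunit, and Sdhd, the second anchor, differed by -0.04 and -0.06 on day 14.

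Among the 10 genes of complex III and cytochrome c the median difference was 0.06 on day 1, with 9 higher, -0.03 on day 3 and -0.07 on day 14, with 8 lower. Without control rats 1 and 3 of day 1 the sign of day 1 turned, with 1 of 10 higher and a median of -0.07. Uqcr10 and Uqcr11, 2 small subunits without redox centres, were those at an unadjusted p under 0.05 on day 14. Uqcr10 had the largest absolute difference of the complex on day 1 and day 14. Uqcr10 read 9.85, 10.72, 9.95 and 10.54 in the controls and 10.45, 10.24, 10.54 and 10.75 in the treated rats of day 1. Uqcr10 on day 3 was 10.95, 10.49, 10.82 and 10.78 in the controls and 10.79, 10.77, 10.56 and 10.71 after rotenone. Uqcr10 on day 14 was 10.89, 10.60, 10.97 and 10.89 in the controls and 10.70, 10.29, 10.27 and 10.58 after rotenone. Control rats 1 and 3 of day 1 stood below all others, and on day 14 treated rat 1 lay within the range of the controls and the other 3 below it. Its differences were 0.23 (SE 0.17) on day 1, -0.05 on day 3 and -0.38 on day 14, where the interval ran from -0.72 to -0.03 and the adjusted p from limma was 0.43. Without the 2 control rats the value of day 1 was -0.14. Uqcr11 differed by -0.22 (SE 0.09, adjusted p = 0.39 from limma) on day 14, from a mean of 10.56 ± 0.11 to 10.34 ± 0.11 (SD, n = 4).

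Uqcrb, another small subunit of complex III, differed most on day 3. Uqcrb read 11.32, 11.59, 11.38 and 11.60 in the controls and 11.52, 11.48, 11.62 and 11.39 in the treated rats of day 1. Uqcrb on day 3 was 11.55, 11.38, 11.65 and 11.49 in the controls and 11.66, 11.80, 11.52 and 11.51 after rotenone. Uqcrb on day 14 was 11.52, 11.62, 11.68 and 11.61 in the controls and 11.68, 11.46, 11.67 and 11.90 after rotenone. The highest value of each day was that of a treated rat, and the diets overlapped. The differences were 0.03, 0.11 and 0.07 (SE 0.10), and -0.09 on day 1 without the 2 control rats. Uqcrfs1 encodes the Rieske iron-sulfur protein, which takes electrons from ubiquinol. Uqcrfs1 read 7.76, 7.79, 7.42 and 7.85 in the controls and 7.65, 7.83, 7.80 and 7.73 in the treated rats of day 1. Uqcrfs1 on day 3 was 8.07, 7.60, 7.87 and 7.94 in the controls and 8.07, 7.68, 8.00 and 7.93 after rotenone. Uqcrfs1 on day 14 was 7.56, 7.78, 7.69 and 7.99 in the controls and 7.78, 7.79, 7.87 and 7.89 after rotenone. Values of both diets overlapped throughout. Uqcrfs1 differed by 0.05, 0.05 and 0.08 (SE 0.11) on the 3 days, and by -0.07 on day 1 without the 2 control rats.

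Cyc1 encodes cytochrome c1, the heme protein that reduces cytochrome c. Cyc1 read 9.26, 9.41, 9.19 and 9.48 in the controls and 9.37, 9.20, 9.34 and 9.31 in the treated rats of day 1. Cyc1 on day 3 was 9.50, 9.35, 9.58 and 9.43 in the controls and 9.42, 9.48, 9.35 and 9.42 after rotenone. Cyc1 on day 14 was 9.47, 9.40, 9.43 and 9.59 in the controls and 9.45, 9.41, 9.26 and 9.38 after rotenone. The 2 diets overlapped on every day, and on day 14 treated rats 3 and 4 lay below all controls. Differences of Cyc1 were -0.03, -0.05 and -0.10 (SE 0.08), and -0.14 on day 1 without the 2 control rats. Cycs encodes cytochrome c, the mobile carrier between complexes III and IV, which also activates caspases once released into the cytosol. Cycs read 12.91, 13.02, 12.61 and 12.97 in the controls and 12.89, 13.04, 12.84 and 12.88 in the treated rats of day 1. Cycs on day 3 was 13.21, 12.93, 13.11 and 12.97 in the controls and 12.92, 13.15, 12.84 and 13.00 after rotenone. Cycs on day 14 was 13.17, 12.62, 12.99 and 13.00 in the controls and 13.08, 13.05, 12.75 and 12.89 after rotenone. Rats of both diets overlapped on every day, and the 2 lowest values were those of a control rat of day 1 and of one of day 14. Cycs differed by 0.03, -0.08 and -0.01 (SE 0.12), and by -0.08 on day 1 without the 2 control rats. This cluster carries the symbol but no gene identifier. Its name gives another chromosome than that of the Cycs promoter window, so these values may not be those of Cycs. The other Cycs cluster, named for the chromosome of that window, differed by -0.06, -0.06 and -0.07 (SE 0.12). The remaining genes of complex III, the core proteins Uqcrc1 and Uqcrc2 and the small subunits Uqcrh and Uqcrq, differed by -0.04, -0.05, -0.11 and -0.16 on day 14.

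Of the 8 measured genes of complex IV, 6 were higher on day 1 (median 0.10), 6 lower on day 3 (median -0.04) and 7 lower on day 14 (median -0.09). On day 1 without control rats 1 and 3, 3 of 8 were higher and the median turned to -0.03. Cox4i1 encodes the common isoform of subunit 4, which binds ATP. Cox4i1 read 11.56, 11.66, 11.34 and 11.90 in the controls and 11.79, 11.71, 11.91 and 11.90 in the treated rats of day 1. Cox4i1 on day 3 was 12.05, 12.05, 12.06 and 12.06 in the controls and 12.08, 11.92, 11.99 and 12.02 after rotenone. Cox4i1 on day 14 was 11.96, 11.97, 11.97 and 12.06 in the controls and 12.07, 12.02, 11.91 and 11.91 after rotenone. The controls of day 1 held the 3 lowest values of all 24 rats, and the 4 controls of day 3 were nearly identical. Its difference was 0.22 (SE 0.09, adjusted p = 0.59 from limma) on day 1, -0.05 on day 3 and -0.01 on day 14. Without control rats 1 and 3 it was 0.05 on day 1. Cox7b, a small subunit, had the largest difference of all 35 genes on day 1. Cox7b read 12.46, 12.82, 12.08 and 12.85 in the controls and 12.87, 12.86, 12.76 and 13.02 in the treated rats of day 1. Cox7b on day 3 was 13.03, 12.73, 13.12 and 13.09 in the controls and 12.98, 13.14, 12.74 and 13.04 after rotenone. Cox7b on day 14 was 12.95, 12.95, 13.12 and 12.96 in the controls and 13.11, 13.10, 12.89 and 13.13 after rotenone. Control rats 1 and 3 of day 1 were again the lowest, with the others of both diets between 12.73 and 13.14. Cox7b differed by 0.33 (SE 0.14, adjusted p = 0.58 from limma) on day 1, by -0.02 on day 3 and by 0.06 on day 14. Its value of day 1 was 0.04 without the 2 control rats.

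Cox8a, a small subunit of the membrane part, had a lower mean after rotenone on all 3 days. Cox8a read 9.22, 9.26, 9.39 and 9.18 in the controls and 9.21, 9.15, 9.08 and 9.28 in the treated rats of day 1. Cox8a on day 3 was 9.44, 9.23, 9.33 and 9.35 in the controls and 9.31, 9.23, 9.26 and 9.17 after rotenone. Cox8a on day 14 was 9.24, 9.28, 9.36 and 9.44 in the controls and 9.31, 8.90, 9.01 and 9.09 after rotenone. On day 14 treated rat 1 lay within the range of the controls and the other 3 below all of them. The differences were -0.08, -0.10 and -0.25 (SE 0.09), that of day 14 with an interval of -0.43 to -0.07, an unadjusted p of 0.0078 and an adjusted p of 0.34 from limma. That of day 1 was -0.04 without the 2 control rats. In the average of the 3 days Cox8a differed by -0.14 (SE 0.05, adjusted p = 0.33 from limma), with a value under the mean of the same day's controls in 11 of 12 treated rats. It was the only one of the 35 genes at an unadjusted p under 0.05 in that average, against 3.35% of clusters lower. Cox6a1 encodes the subunit 6a isoform of most tissues outside heart and skeletal muscle. Cox6a1 read 14.86, 15.29, 14.94 and 15.38 in the controls and 15.10, 15.10, 14.88 and 15.39 in the treated rats of day 1. Cox6a1 on day 3 was 15.59, 15.14, 15.46 and 15.36 in the controls and 15.62, 15.41, 15.25 and 15.57 after rotenone. Cox6a1 on day 14 was 15.32, 15.51, 15.58 and 15.69 in the controls and 15.54, 14.98, 15.24 and 15.30 after rotenone. The controls of day 1 and the treated rats of day 14 had the lowest value of their days, and groups overlapped on each day. Cox6a1 differed by -0.0018, 0.08 and -0.26 (SE 0.14, adjusted p = 0.52 from limma on day 14), and by -0.22 on day 1 without the 2 control rats. Cox5b, which binds zinc on the matrix side, differed by -0.23 (SE 0.09) on day 14, while Cox5a, Cox6c and Cox7a2 differed by -0.06, -0.02 and -0.12.

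In the 13 measured genes of complex V the median difference was 0.03 on day 1, with 11 higher, -0.01 on day 3, with 8 lower, and -0.09 on day 14, with 11 lower. The day 1 median turned to -0.03, with 3 of 13 higher, without control rats 1 and 3. The epsilon subunit gene Atp5f1e, part of the central stalk of the F1 head, had the largest absolute difference of all 35 genes on day 14. Atp5f1e read 11.27, 11.59, 11.15 and 11.69 in the controls and 11.43, 11.35, 11.34 and 11.70 in the treated rats of day 1. Atp5f1e on day 3 was 11.95, 11.50, 11.75 and 11.89 in the controls and 11.75, 11.98, 11.61 and 11.75 after rotenone. Atp5f1e on day 14 was 11.80, 11.80, 12.07 and 11.81 in the controls and 11.76, 11.23, 11.42 and 11.47 after rotenone. On day 14 every treated rat lay below every control. This held for 2 genes of 35, against 2.81% of all clusters in that direction, a share not computed for the brighter genes alone. The difference of Atp5f1e on day 14 was -0.40 (SE 0.14, interval -0.68 to -0.12), from a mean of 11.87 ± 0.13 to 11.47 ± 0.22 (SD, n = 4), with an adjusted p of 0.34 from limma. The second cluster with the symbol Atp5f1e differed by -0.36 (SE 0.18, adjusted p = 0.48 from limma). Its name gives another chromosome than that of the Atp5f1e promoter window, so it may not be a second measure of this gene. On day 1 and day 3 the brighter cluster differed by 0.03 and -0.0019, and by -0.19 on day 1 without the 2 control rats.

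Atp5mc1, Atp5mc2 and Atp5mc3 encode the c subunit of the proton-driven ring, and their proteins differ mainly in the leader that is removed on import into the mitochondrion. Atp5mc1 read 9.10, 8.90, 8.94 and 9.14 in the controls and 9.09, 8.93, 9.20 and 8.83 in the treated rats of day 1. Atp5mc1 on day 3 was 9.28, 9.19, 9.18 and 9.23 in the controls and 9.15, 8.98, 9.22 and 9.29 after rotenone. Atp5mc1 on day 14 was 9.26, 9.17, 9.10 and 9.24 in the controls and 9.16, 9.15, 9.11 and 9.01 after rotenone. The diets overlapped on each day. Atp5mc2 read 12.00, 11.73, 11.51 and 11.95 in the controls and 11.74, 11.64, 11.97 and 11.90 in the treated rats of day 1. Atp5mc2 on day 3 was 11.99, 11.97, 11.98 and 12.16 in the controls and 12.17, 12.04, 11.85 and 12.01 after rotenone. Atp5mc2 on day 14 was 11.96, 12.01, 12.02 and 12.09 in the controls and 11.91, 11.61, 11.80 and 11.82 after rotenone. Atp5mc2 was the other gene whose treated rats of day 14 were all below the controls. Atp5mc3 read 8.86, 8.96, 8.85 and 9.07 in the controls and 8.97, 8.99, 9.05 and 8.90 in the treated rats of day 1. Atp5mc3 on day 3 was 9.24, 8.95, 9.14 and 8.95 in the controls and 9.08, 9.09, 8.83 and 9.08 after rotenone. Atp5mc3 on day 14 was 9.15, 9.03, 9.12 and 9.13 in the controls and 8.96, 8.96, 9.04 and 9.01 after rotenone. Atp5mc3 on day 14 overlapped by 1 rat only, since treated rat 3 lay above control rat 2. The differences of day 14 were -0.09, -0.23 and -0.12 for Atp5mc1, Atp5mc2 and Atp5mc3 (SE 0.09, 0.11 and 0.08), with adjusted p-values from limma of 0.76, 0.44 and 0.63. On day 1 they were -0.01, 0.02 and 0.04, and -0.0047, -0.03 and -0.04 without the 2 control rats. On day 3 they were -0.06, -0.01 and -0.05.

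Atp5f1b encodes the catalytic beta subunit. Atp5f1b read 15.64, 15.61, 15.56 and 15.68 in the controls and 15.68, 15.55, 15.74 and 15.69 in the treated rats of day 1. Atp5f1b on day 3 was 15.84, 15.68, 15.75 and 15.72 in the controls and 15.88, 15.72, 15.76 and 15.83 after rotenone. Atp5f1b on day 14 was 15.81, 15.69, 15.65 and 15.83 in the controls and 15.72, 15.66, 15.67 and 15.70 after rotenone. The treated rats of day 14 were close together and within the range of the controls. Atp5f1b differed by 0.04, 0.05 and -0.06 (SE 0.07), and by 0.02 on day 1 without the 2 control rats. Atp5po encodes OSCP, which joins the F1 head to the outer stalk. Atp5po read 10.84, 11.25, 10.70 and 11.31 in the controls and 11.32, 11.04, 11.24 and 11.39 in the treated rats of day 1. Atp5po on day 3 was 11.66, 11.25, 11.57 and 11.55 in the controls and 11.64, 11.50, 11.24 and 11.36 after rotenone. Atp5po on day 14 was 11.42, 11.38, 11.65 and 11.59 in the controls and 11.53, 11.49, 11.11 and 11.34 after rotenone. Control rats 1 and 3 of day 1 lay below all other rats. Its differences were 0.22, -0.07 and -0.14 (SE 0.14), and -0.03 on day 1 without the 2 control rats. Atp5pb, the b subunit of the outer stalk, differed most among the complex V genes on day 3. Atp5pb read 14.94, 14.87, 14.77 and 14.95 in the controls and 14.95, 15.01, 15.01 and 14.68 in the treated rats of day 1. Atp5pb on day 3 was 14.96, 14.86, 14.95 and 14.89 in the controls and 15.08, 15.04, 14.91 and 15.04 after rotenone. Atp5pb on day 14 was 15.10, 14.86, 14.97 and 15.15 in the controls and 15.06, 14.79, 14.96 and 14.99 after rotenone. The diets overlapped on all days, and Atp5pb differed by 0.03, 0.10 and -0.07 (SE 0.09), with 0.01 on day 1 without the 2 control rats. The other 6 genes of complex V, among them the alpha subunit gene Atp5f1a, differed by -0.20 (Atp5mf) to 0.05 (Atp5pd) on day 14.

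**Figure D3:**
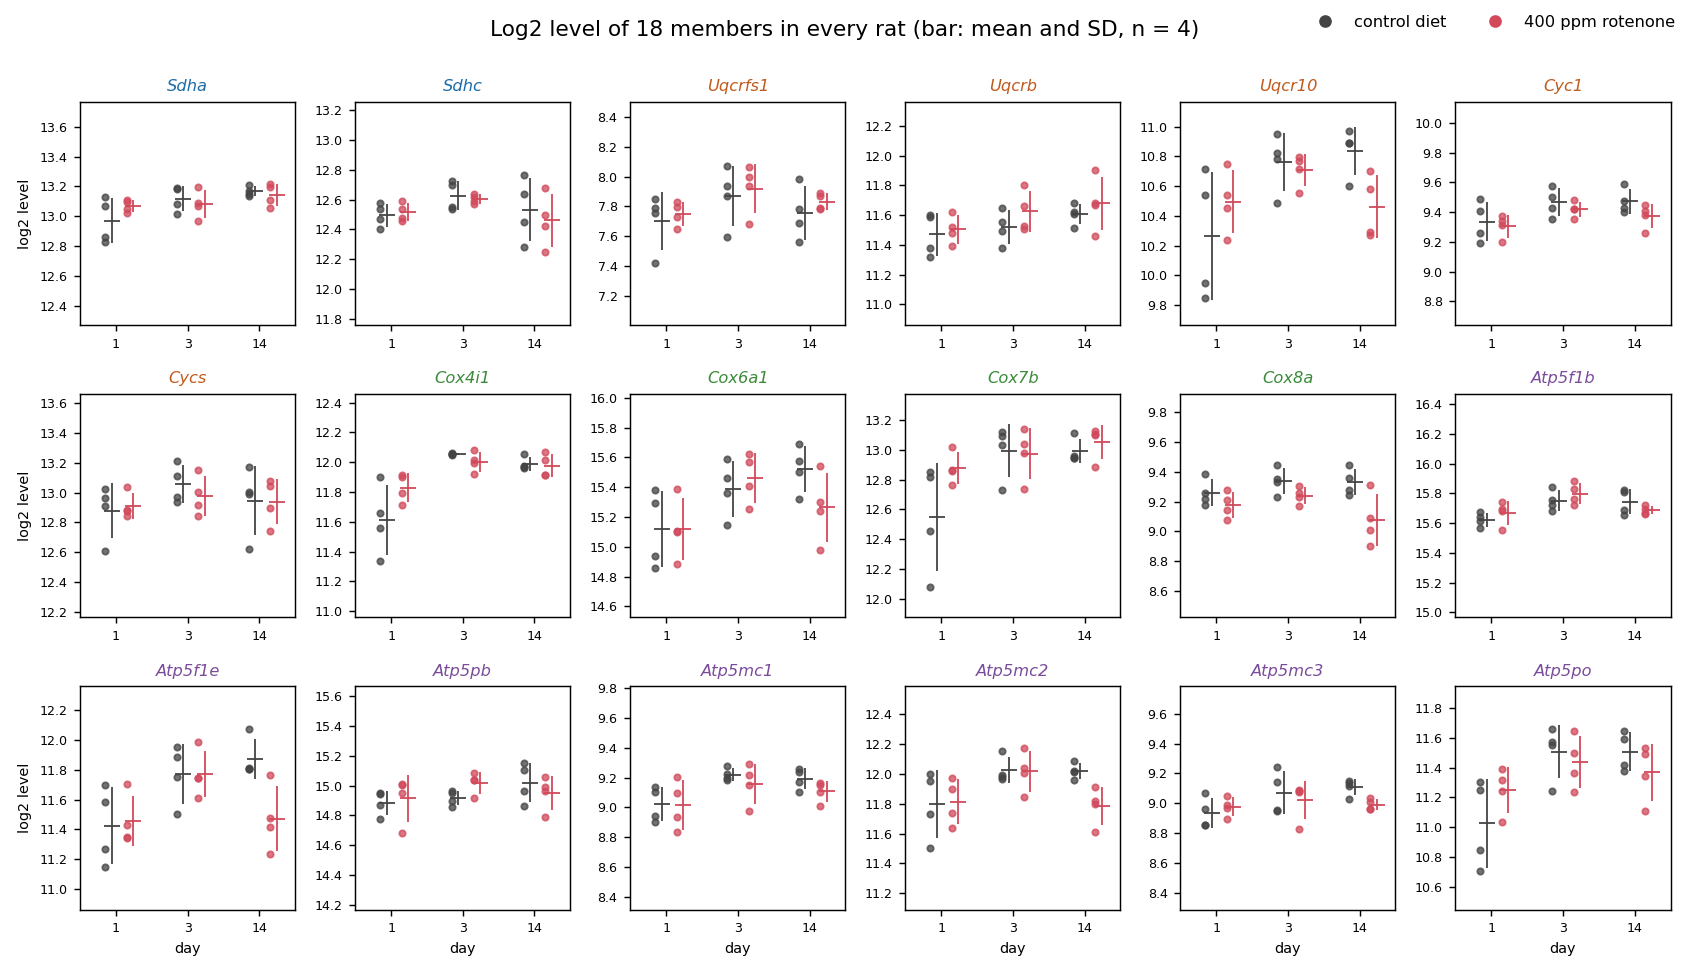
Log2 level of 18 genes in every rat by day (x axis), control diet in grey and 400 ppm rotenone in red, with mean and SD (n = 4) beside the points and a y axis of the same span in each panel. Atp5f1e and Atp5mc2 are the genes whose treated rats all lay below the controls on day 14, and in Uqcr10, Cox4i1, Cox7b and Atp5po the 2 lowest controls of day 1 were rats 1 and 3.

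Marker lists of other cell types were read in the same rats of day 14. The mean of 3 red cell markers, all measured and above the median cluster, was 12.70 to 13.80 in the controls and 7.65 to 11.35 in the treated rats. The mean of 8 choroid plexus markers, of which 5 were above the median cluster, was 6.17 to 7.18 and 6.25 to 9.67. The mean of 8 astrocyte markers was 11.89 to 12.26 in the controls and 11.75 to 11.87 in the treated rats, without overlap. The mean of 4 measured endothelium markers of 6 was 9.95 to 10.17 and 9.50 to 9.95, that of 9 measured oligodendrocyte markers of 10 was 14.24 to 14.55 and 14.02 to 14.34, and that of 6 microglia markers was 9.14 to 9.24 and 9.02 to 9.15, each with overlap. Markers of brain stem neurons, at 9.57 to 9.79 and 9.07 to 9.63, and of neurons, at 14.72 to 14.92 and 14.78 to 14.94, overlapped too. All markers of these 6 lists that were measured lay above the median cluster. With the cerebellum and choroid plexus means as covariates 31 of the 35 genes were lower on day 14, with a median of -0.09, and 7 were at an unadjusted p under 0.05, against 4.16% of clusters. The part of the red cell, astrocyte, endothelium, oligodendrocyte and microglia markers in the differences was not tested. The count of 6 genes at an unadjusted p under 0.05 was 3 without control rat 3 of day 14, 2 without control rat 4 and 2 without treated rat 3, and 2 to 7 over all fits that left out 1 rat.

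The larger differences were between days within a diet. In the controls all 35 genes were at a higher mean on day 3 than on day 1. The median log2 difference was 0.18 against 0.01 over all clusters and 0.04 over genes with a symbol. Of the 35, 17 reached an unadjusted p under 0.05, against 4.47% of clusters higher and 9.97% of genes with a symbol above the median cluster. None passed after adjustment (0 of 35, and 0% of clusters). Complex IV had the largest median, 0.33, with 6 of 8 genes at an unadjusted p under 0.05, and complexes II, III and V had medians of 0.15, 0.17 and 0.15. Cox4i1 differed by 0.44 (SE 0.09, unadjusted p = 8.1e-05, adjusted p = 0.45 from limma), Cox7b by 0.44, Atp5po by 0.48 and Uqcr10 by 0.50. The controls of day 3 all lay above those of day 1 for 5 genes (Sdhd, Cox4i1, Cox5a, Atp5f1b and Atp5mc1), against 2.38% of clusters. On day 14 against day 1 all 35 were also higher, with a median of 0.20 against -0.01 over all clusters and 0.03 over genes with a symbol. Here 19 reached an unadjusted p under 0.05, against 5.46% of clusters and 13.6% of the brighter genes, and the adjusted test called 0 of 35 and 0% of clusters. For 12 genes the groups did not overlap, against 2.38% of all clusters, with no such share computed for the brighter genes here or for day 3. These comparisons share the controls of day 1. Between day 3 and day 14 the controls differed by a median of -0.0021, with 0 of 35 at an unadjusted p under 0.05, against 1.35% of clusters higher and 2.18% lower, and 0 after adjustment (0% of clusters).

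Both day comparisons were smaller without control rats 1 and 3 of day 1. Without them 34 of 35 genes were higher on day 3, with a median of 0.10 and 1 at an unadjusted p under 0.05. On day 14, 30 of 35 were higher, with a median of 0.12 and 1 at an unadjusted p under 0.05. The share of all clusters is not given for this fit, so these counts have no background beside them. The exception on day 3 was Uqcrb, at -0.07. Cox4i1 differed by 0.27 and Atp5po by 0.23 then, and the median of complex IV was 0.17. With the cerebellum and choroid plexus means as covariates the median between day 1 and day 3 was 0.09, with 33 of 35 higher. Leaving out control rat 4 of day 1 instead brought Cox4i1 past the adjusted test, at 0.033 for day 3 and 0.028 for day 14, where 231 and 558 of all clusters then passed against 0 with all rats. The count of 17 was 11 without control rat 3 of day 1 and 10 without control rat 1 of day 3.

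The treated rats gave a comparison of the same days in other animals. Here too all 35 genes were at a higher mean on day 3 than on day 1. The median was 0.12 against -0.01 over all clusters and 0.02 over genes with a symbol. Only Cox5b, Cox6a1 and Atp5f1e reached an unadjusted p under 0.05, against 1.73% of clusters and 3.29% of the brighter genes, and after adjustment 0 of 35 and 0% of clusters passed. Cox6a1 differed by 0.35 (SE 0.14), Atp5f1e by 0.32 (SE 0.14), Cox5b by 0.21 (SE 0.09) and Cox4i1 by 0.17 (SE 0.09). Groups did not overlap for Cox4i1, Cox5b and Atp5f1d, against 1.57% of all clusters, a share not computed for the brighter genes. Complex IV again had the largest median, 0.17, and complexes II, III and V had 0.08, 0.14 and 0.13. The cerebellum markers of the treated rats were at 8.34 to 8.81 on day 1 and 8.47 to 8.52 on day 3. The median deviation of the 35 genes was -0.17, -0.06, -0.02 and -0.01 in those of day 1 on rotenone and -0.03, 0.05, 0.09 and 0.14 in those of day 3 on rotenone, so that 1 rat of day 3 lay within the range of day 1. The count of 3 was 1 to 6 when single rats were left out, with 1 gene without treated rat 1 or 2 of day 1 or treated rat 1 of day 3, and with 34 or 35 of 35 genes higher in each of the 24 fits. The 35 genes are transcripts of the same arrays and not independent of each other, and day of killing, age and time on the diet cannot be told apart within a diet. From day 3 to day 14 of rotenone 29 of 35 were lower, with a median of -0.07 and 3 at an unadjusted p under 0.05, against 3.5% of clusters and 9.18% of the brighter genes, and 0 of 35 passed after adjustment, against 0.0189% of clusters. Between day 1 and day 14 of rotenone 30 of 35 were higher, with a median of 0.06 and 0 at an unadjusted p under 0.05, against 2.3% of clusters higher and 2.87% lower, and 0 passed after adjustment, against 0.0305%.

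**Figure D4:**
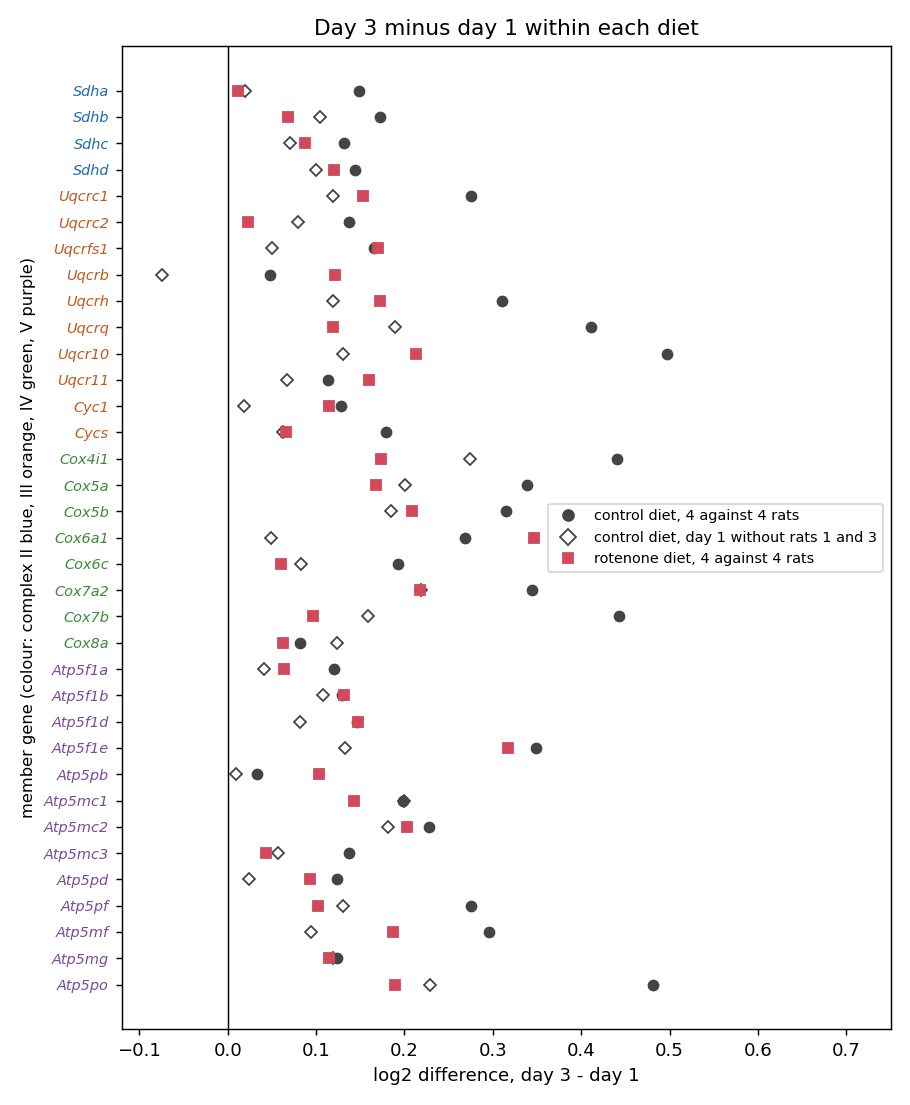
Log2 difference between day 3 and day 1 of each of the 35 genes (rows) in the controls (filled circles), in the controls without rats 1 and 3 of day 1 (open diamonds) and in the treated rats (squares). Circles and squares all lie right of 0, and among the diamonds Uqcrb alone lies left of it, at -0.07.

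Genes of the neighbouring pathway lists were at similar values only in part. From day 1 to day 3 of rotenone the 35 genes had a median of 0.12. Citrate cycle enzymes had 0.08 (10 of 11 higher) and assembly factors 0.035 (20 of 30 higher). Other isoforms and subunits had 0.04 (7 of 9 higher) and subunits encoded in mitochondrial DNA 0.0041 (2 of 3 higher). Of 38 genes of complex I subunits 36 were measured, and their median difference was 0.06 on day 1, 0.0033 on day 3 and -0.08 on day 14, when 31 were lower and 3 of them at an unadjusted p under 0.05, against 3.84% of clusters and 10.9% of the brighter genes, and 0 after quantile normalization. Between day 1 and day 3 all 36 were higher in the controls (median 0.20) and 35 in the treated rats (median 0.14). The largest difference of day 14 among them was that of Ndufa11, at -0.39 (SE 0.18, adjusted p = 0.45 from limma). Ndufa4 was counted in this list and again among the other isoforms and subunits of complexes III to V below, so the lists are not separate. The counts and medians of complex I subunits thus include a gene also listed for complexes III to V. Of 33 assembly factors 30 were measured, and on day 14 24 were lower, 6 of them at an unadjusted p under 0.05 (against the same 3.84% and 10.9%), and 2 after quantile normalization, when 4.33% of clusters were. Taco1, a translational activator of COX1, was at -0.36 (SE 0.09, adjusted p = 0.22 from limma). In 11 citrate cycle enzymes the median was 0.02, 0.03 and -0.05 on the 3 days, with no gene at an unadjusted p under 0.05, and 0.10 between day 1 and day 3 of the controls. Other isoforms and subunits, 9 measured, included Cox8b, at 0.49 (SE 0.17, adjusted p = 1.0 from limma) on day 3. The mean log2 level of Cox8b was 4.81, below the median cluster at 6.24, so this is a difference of a dim cluster. None of these lists had a gene past the adjusted test on day 1, day 3 or day 14. The 3 measured subunits of complex IV encoded in mitochondrial DNA, COX1, COX2 and COX3, differed by -0.08 to -0.04 on day 1, -0.06 to -0.03 on day 3 and -0.01 to 0.01 on day 14. Between day 1 and day 3 of the controls they differed by -0.04 to 0.01, where the 35 nuclear genes differed by 0.03 to 0.50. Without control rats 1 and 3 of day 1 the nuclear genes differed by -0.07 to 0.27. COX1, COX2 and COX3 were at mean log2 levels of 19.75, 18.92 and 19.08, above all 35 genes, of which Cox6c was highest at 16.13. Whether differences are compressed at such levels was not tested.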

How the data were processed

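RNA of the brain stem of 24 rats was hybridized to RTA 1.0 arrays. The authors corrected the probe signals for GC count and signal space and condensed them with RMA to 1 linear intensity for each transcript cluster, as deposited. Of 70580 entries 1738 control probe sets were dropped. The deposited intensity of the other 68842 clusters was put on the log2 scale and not normalized again. Gene symbols came from the annotation of the array (23446 clusters with 1 symbol, 505 with several and 44891 with none), and names from RefSeq GRCr8.

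The model (limma 3.58.1, R 4.3.3) had 1 mean per group, 6 in all, with 18 residual and 3.64 prior degrees of freedom. Benjamini-Hochberg adjustment ran over all clusters. The script was tested on simulated data. Full values are given for the gene of each complex with the largest absolute difference on each day, for Sdha, Uqcrfs1, Cyc1, Cycs, Cox4i1 and Atp5f1b, and for the c subunit genes. Other genes are named where they reached an unadjusted p under 0.05 or did not overlap, and were then chosen after their values were seen. The genes, the lists and the rule were chosen with earlier results of these data known. Alternatives are described in the closing section. Python 3.11.15 and matplotlib 3.10.9 were used for the figures.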

Additional observations from a re-analysis of the deposited data

Results flagged for a closer look

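For 18 genes and for the median of the 35 genes, each group of 4 rats was searched for a rat far from the other 3, by a gap that took more of the range of the group than Dixon's 95% critical value for 4 samples allows. Of 114 groups of values 6 met this, where chance gives about 1 in 20, or 5.7. Cox7b was at 13.12 in control rat 3 of day 14, above 12.95 to 12.96 in the others, and at 12.89 in treated rat 3 of day 14, below 13.10 to 13.13. Atp5f1e was at 12.07 in control rat 3 of day 14, above 11.80 to 11.81. Cox4i1 was at 12.06 in control rat 4 of day 14, above 11.96 to 11.97. Atp5mc2 was at 12.16 in control rat 4 of day 3, above 11.97 to 11.99, and Atp5mc3 was at 8.83 in treated rat 3 of day 3, below 9.08 to 9.09.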

How the results depend on the processing

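With other choices of processing, 0 of the 35 genes passed the adjusted test in any of 119 recomputed counts. These choices were quantile normalization, centring of the arrays, other priors, least squares without moderation, only brighter clusters or those with 1 symbol, the mean over several clusters per gene, only the 8 arrays compared (no value for the average and the interaction), a replicate block, the omission of control rats 1 and 3 of day 1, and the marker means as covariates. With 1 array left out 262 of 264 counts stayed at 0, and the count for the controls ranged from 0 to 1 for day 3 against day 1 and for day 14 against day 1, the 1 being Cox4i1 without control rat 4 of day 1. Of 69 medians 67 moved by less than 0.081, the SD of the median within groups. The median of rotenone on day 14 was -0.16 with the arrays centred, and that of the controls between day 1 and day 3 was 0.091 with the covariates. With 1 array left out, all 240 medians moved by less than this SD, and the median of rotenone on day 14 was -0.11 to -0.06. The medians of rotenone minus control were themselves smaller in size than this SD, at 0.04, -0.02 and -0.07 on the 3 days. Such a median can change sign without counting as moved, as that of day 1 did without control rats 1 and 3. These totals therefore cannot show that the rotenone medians were stable.

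Counts at an unadjusted p under 0.05 moved more. The share of all clusters is not given for each of these refits, nor for the fits without 1 rat. The counts therefore show only how far they moved. The 6 genes lower on day 14 were 2 after quantile normalization and 3 with only 8 arrays. The 17 genes higher in the controls of day 3 were 10 with only 8 arrays and 1 with the covariates, and the 19 of day 14 were 1 with the covariates. The 3 genes higher on day 3 of rotenone were 1 after quantile normalization and 7 with centred arrays. Of all clusters, the 26 called on day 14 were 107 among clusters with 1 symbol and 0 with only 8 arrays, and 0 to 154 with 1 array left out. Of 990 differences of single genes 36 moved by more than the SD within groups, 16 without control rats 1 and 3 of day 1 and 17 with the covariates, and 17 each were in rotenone on day 1 and in the controls between day 1 and day 3.

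Equal replicate numbers stand for no shared litter or batch in the labels, and 14 of 60 pairs of arrays with the same number correlated above 0.1 in their deviations from the group means (range -0.45 to 0.39). With the replicate block 0 of 35 were called, the smallest adjusted p from limma on day 14 was 0.38, and 14 of all clusters were called on that day.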
